A study of Mus musculus with 4 samples.

Results

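The chemokine and cytokine genes were examined on 4 microarrays of mouse embryonic fibroblasts (MEFs), primary cells cultured from mouse embryos. Members were chosen by gene name alone: every probe whose gene is a numbered Cxcl, Ccl or Il gene, together with Cx3cl1, Csf1, Csf2, Csf3, Lif, Tslp and Tnf. The rule took 80 probes for 70 gene names, out of 39429 probes and 31806 gene names on the array. The rule uses names and no measured value, but it was set with earlier results of these data known.

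The study made mice that lack cyclin G2 (gene Ccng2), or both cyclin G1 (Ccng1) and cyclin G2, and the arrays compared MEFs of these mice with wild-type (WT) MEFs. Each group was 1 single-color array. The groups were CycG2-/- MEFs (labelled G2KO), their CycG2+/+ WT (labelled G2WT), CycG1-/-CycG2-/- double-knockout MEFs (DKO, labelled G1G2KO) and their CycG1+/+CycG2+/+ WT (labelled G1G2WT). All were of the C57BL/6J strain, and all were grown in DMEM with 10% fetal bovine serum and harvested in logarithmic growth, with no cytokine or other stimulus named. Both genes were disrupted in the germ line, so every cell of a mutant culture carries the mutation. How many embryos went into each culture is not given in the sources used here. With 1 array per group no test of a genotype was possible, no p-value is given, and a difference between arrays compares these MEF preparations, not the genotypes.

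Chemokines are small secreted proteins that draw leukocytes along a gradient through receptors with several transmembrane segments. The CXC chemokines with an ELR motif (Cxcl1, Cxcl2, Cxcl3, Cxcl5) attract neutrophils through Cxcr2, whereas Ccl2 and Ccl7 attract monocytes through Ccr2. Fibroblasts are a well-known source of such chemokines, of the interleukin-6 family and of Csf1. Many of these genes are switched on by NF-κB, a transcription factor that binds κB sites in their promoters, after signals from the interleukin-1 receptor, the TNF receptor or Toll-like receptors.

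Promoters from RefSeq (GRCm38.p6) were found for 47 of the 70 genes, which gave 54 promoters that could be used. No promoter was found for Cxcl5, Ccl2 or Ccl7, so these genes were not searched for motifs. The 150 bases before the transcription start are printed here for some of the genes named in the later results. The neutrophil chemokines Cxcl1 (chr5:90891095-90891244 on the plus strand), Cxcl2 (chr5:90903749-90903898 on the plus strand) and Cxcl3 (chr5:90785951-90786100 on the plus strand) lie in 1 cluster, and Cxcl10 (chr5:92348890-92349039 on the minus strand) is a chemokine induced by interferon. Capitals mark matches to the κB consensus. The first capital of the Cxcl10 sequence is the last base of a match that begins upstream of the printed stretch.
Cxcl1: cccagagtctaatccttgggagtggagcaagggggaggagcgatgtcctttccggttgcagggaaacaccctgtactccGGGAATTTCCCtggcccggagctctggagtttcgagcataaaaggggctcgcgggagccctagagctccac
Cxcl2: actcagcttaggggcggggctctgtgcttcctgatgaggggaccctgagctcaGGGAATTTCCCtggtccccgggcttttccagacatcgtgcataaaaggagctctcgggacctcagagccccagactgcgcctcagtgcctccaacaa
Cxcl3: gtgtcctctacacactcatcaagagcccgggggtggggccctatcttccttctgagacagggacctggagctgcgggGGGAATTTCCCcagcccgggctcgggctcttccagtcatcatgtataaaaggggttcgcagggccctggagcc
Cxcl10: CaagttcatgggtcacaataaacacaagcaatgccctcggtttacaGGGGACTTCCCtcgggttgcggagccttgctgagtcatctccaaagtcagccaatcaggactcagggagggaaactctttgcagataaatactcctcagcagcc
The same 10 bases, GGGAATTTCC, stand 71 bases before the start of Cxcl1, 97 before Cxcl2 and 73 before Cxcl3 (position of the first base), and an overlapping match was found on the other strand of each. For contrast, no match was found in the 250 bases before the start of Cxcl12 (chr6:117168385-117168534 on the plus strand) or before either start of Il33 (chr19:29924963-29925112 on the plus strand and chr19:29945640-29945789 on the plus strand), a pair of genes with their highest level on the DKO array.
Cxcl12: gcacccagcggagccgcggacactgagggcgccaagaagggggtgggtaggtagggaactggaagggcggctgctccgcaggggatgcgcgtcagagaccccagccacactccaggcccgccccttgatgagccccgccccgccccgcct
Il33, upstream start: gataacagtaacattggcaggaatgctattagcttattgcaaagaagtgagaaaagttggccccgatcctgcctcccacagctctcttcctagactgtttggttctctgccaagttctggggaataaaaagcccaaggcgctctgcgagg
Il33, downstream start: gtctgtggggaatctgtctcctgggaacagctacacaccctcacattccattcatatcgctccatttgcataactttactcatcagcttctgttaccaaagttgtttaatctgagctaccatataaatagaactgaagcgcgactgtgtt

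Over the 250 bases before the start, the κB consensus, searched on both strands, was found in 12 of 54 member promoters (22.2%) against 7.25% of 32851 promoters in the genome. The 12 genes were Ccl1, Ccl9, Ccl20, Csf1, Cxcl1, Cxcl2, Cxcl3, Cxcl10, Il6, Il16, Il19 and Lif. The AP-1 motif TGANTCA, also searched on both strands, was found in 9 member promoters (16.7%, against 6.75% of all), among them those of Cxcl10, Il6, Il11 and Lif. TATAAA, searched on the gene's strand only, was found in 18 (33.3%, against 7.59%). A match describes the letters of a window and does not show that a factor bound there.

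A level below is a probe's processed signal divided by the 75th percentile of its array, so that a level of 1 equals that percentile. A probe is called dim where its signal was not well above background, by the scanner software's own test. Levels of different genes come from different probes and were not compared with each other. The arrays had 65.0% to 72.2% of probes well above background and no saturated spot, and replicate spots of a probe had a median SD of 0.0752 to 0.122 (log2). A difference of at least 4-fold between arrays is called higher or lower. Where a probe was dim on 1 array of a pair, the fold is a lower limit, given as "at least".

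The labels of the G2KO pair need care. Ccng1, which the labels name as altered in neither of the pair, had a level of 1.98 on the array labelled G2KO and 9.45 on the array labelled WT, against 1.66 on the WT of the DKO pair. On the DKO array Ccng1 was dim, at least 228-fold below its WT. Xist, the RNA made from the inactive X chromosome of female cells, was dim on the array labelled G2KO (0.00183), read 1.13 on the array labelled WT, and was dim on both arrays of the DKO comparison. The study describes its G2KO MEFs as of female origin. Ccng2 did not separate the groups, with levels of 0.0910 (G2KO), 0.104 (its WT), 0.0619 (DKO) and 0.0806 (its WT). Over the 24197 probes above background everywhere, the array labelled G2KO lay closer to the WT of the DKO comparison (SD of the log2 difference 0.535) than the WT arrays lay to each other (1.01). The arrays labelled G2KO and WT in this pair may therefore be exchanged or come from other cultures, which was not tested. For Pdgfra, a fibroblast receptor, the direction by these labels is also the opposite of the one the study gives. Every direction in the G2KO pair rests on its labels and would turn if they were exchanged, and member genes called in it are also given against the other WT array.

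Of the 70 genes, 28 were above background on all 4 arrays, 13 on 1 to 3 arrays, and 29 were dim on all. Those dim everywhere included Tnf, Il1b and Csf3, central mediators of acute inflammation. The interleukins Il2, Il3, Il4, Il9, Il12a, Il12b, Il13, Il17a, Il17b, Il21, Il23a, Il25 and Il31 were dim everywhere too. So were the chemokines Cxcl2, Cxcl9, Cxcl13, Cxcl15, Ccl1, Ccl4, Ccl6, Ccl12, Ccl20, Ccl22, Ccl24, Ccl26 and Ccl28. A dim signal sets only an upper limit, the lowest signal called above background being 0.00660 to 0.0102 on the level scale. Of the others, 18 genes differed at least 4-fold in 1 or more comparisons, as the plot of their levels shows.

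**Figure D1:**
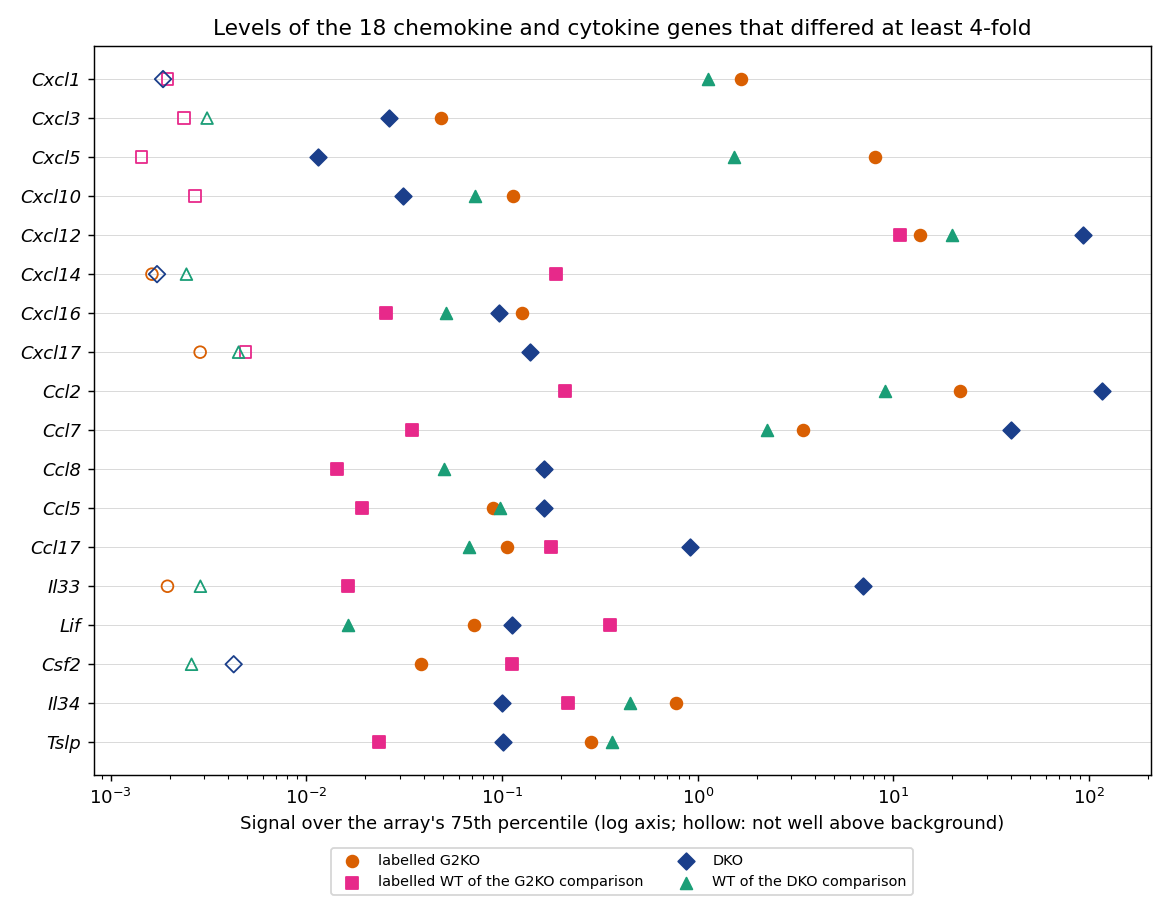
Signal over the array's 75th percentile (log axis) on the 4 arrays for the 18 chemokine and cytokine genes that differed at least 4-fold in a comparison, ordered by family; each symbol is 1 array and a hollow symbol was not well above background. Cxcl1 and Cxcl5 sit high on the array labelled G2KO and the WT of the DKO comparison, whereas Cxcl12, Cxcl17, Ccl2, Ccl7, Ccl17 and Il33 reach their highest level on the DKO array.

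The DKO comparison sets the array of CycG1-/-CycG2-/- MEFs against that of their CycG1+/+CycG2+/+ WT. Of 41 member probes compared, 8 were at least 4-fold higher on the DKO array, against 3.93% of all probes compared, and 3 were at least 4-fold lower, against 3.99%. The 8 probes belong to Ccl2, Ccl7, Ccl17, Cxcl12 (both probes), Cxcl17, Il33 and Lif, and the 3 to Cxcl1, Cxcl5 and Il34. Among probes above background on both arrays, 17.1% of 35 members were higher and 5.71% lower, against 2.65% and 2.88% of all 24869 such probes. The typical difference was also wider, with a median absolute log2 ratio of 0.90 for the members and 0.43 for all probes compared. With normexp, another background correction, Lif (1.54) and Il34 (-1.68 on the log2 scale) fell short of 4-fold. The median log2 ratio was 0.26, against 0.02 for all probes.

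By its labels, the G2KO comparison sets CycG2-/- against CycG2+/+ MEFs. Of 45 member probes, 10 exceeded the labelled WT by 4-fold or more on the array labelled G2KO (Cxcl1, Cxcl3, Cxcl5, Cxcl10, Cxcl16, Ccl2, Ccl5, Ccl7, Ccl8 and Tslp), against 3.58% of all probes compared. Cxcl14 and Lif were at least 4-fold lower, against 1.92% of all. For 4 of the 10 and for Cxcl14 the value is a lower limit. The median absolute log2 ratio was 1.02 for the members and 0.44 for all probes. With the other WT array in place of the labelled one, 4 member probes were at least 4-fold higher (Cxcl3, Cxcl5, Il6 and Lif), against 0.838% of all probes in that comparison, and 0 were lower, against 1.35%. Of 33 genes with a ratio to both WT arrays, 9 changed sign. With normexp, Cxcl3 (0.62), Cxcl10 (1.86), Cxcl16 (1.23), Ccl5 (1.02), Ccl8 (1.77) and Lif (-1.93 on the log2 scale) fell short of 4-fold in the labelled pair.

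By their labels, the 2 WT arrays are the only pair that measures how far MEF preparations differ without a knockout. Were the labels of the G2KO pair exchanged, this pair would instead set a knockout array against a WT array. Of 40 member probes, 7 were at least 4-fold higher on the WT of DKO (Cxcl1, Cxcl5, Cxcl10, Ccl2, Ccl5, Ccl7 and Tslp), against 4.57% of all probes, and 3 were lower (Cxcl14, Csf2 and Lif), against 2.65%. Over the 33 member probes above background everywhere, the SD of the log2 difference between the WT arrays was 1.98, against 2.06 for the labelled G2KO pair and 1.55 for the DKO pair. The smallest SD of any pair, 0.877, was that between the array labelled G2KO and the WT of the DKO comparison. For all probes the corresponding SDs were 1.01, 0.859, 1.02 and 0.535, so the member genes spread more widely than the rest in each of these 4 pairs. With normexp, Ccl5 (1.18), Cxcl10 (1.43) and Csf2 (-1.69) fell short of 4-fold between the WT arrays. The 3 comparisons share arrays, since each WT array also serves in a knockout comparison, and their values below are not independent of each other.

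**Figure D2:**
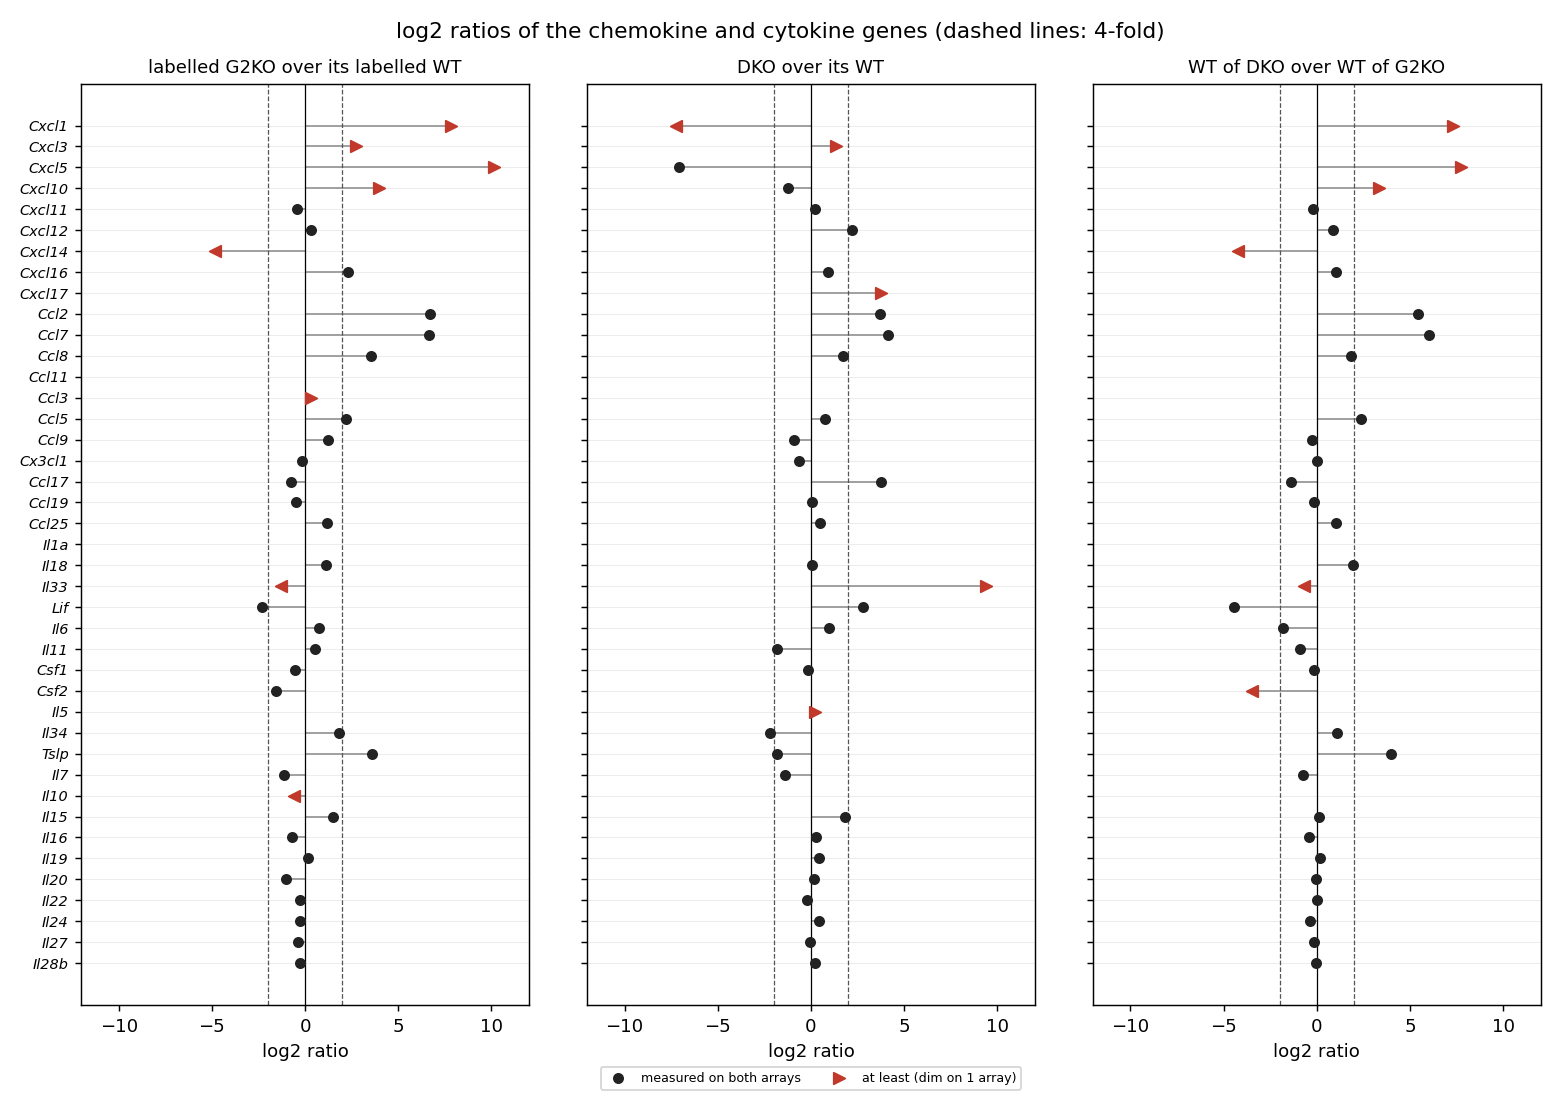
log2 ratios of the 41 chemokine and cytokine genes above background on 1 or more arrays, in the labelled G2KO pair, the DKO pair and between the WT arrays; black points were measured on both arrays, red arrowheads are lower limits, a row with no symbol had no ratio, and dashed lines mark 4-fold. Cxcl1 and Cxcl5 point to opposite sides in the G2KO and DKO panels, while Ccl2 and Ccl7 lie to the right of the 4-fold line in all 3.

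Among the neutrophil-attracting CXC chemokines, Cxcl5 and Cxcl1 differed most between arrays. Cxcl5 (probe at mm9 chr5:91190490-91190549), made by epithelial and stromal cells, had a level of 8.09 on the array labelled G2KO, was dim on its labelled WT (0.00144), and read 0.0114 on DKO and 1.53 on the WT of that comparison. The same array pairs were high for Cxcl1 (chr5:91321845-91321904), the main neutrophil chemokine of fibroblasts, at 1.66 on G2KO and 1.12 on the WT of DKO, with dim signals of 0.00195 on the labelled G2WT and 0.00185 on DKO. Both genes were thus far above background on the same pair of arrays and at or near background on the other pair. On the array labelled G2KO, Cxcl5 exceeded its WT at least 1130-fold, and it was 134-fold lower on DKO than on the WT there. For Cxcl1 these differences were at least 232-fold higher and at least 154-fold lower.

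Between the WT arrays Cxcl5 differed by at least 213-fold and Cxcl1 by at least 157-fold. Against the other WT array the log2 ratio of G2KO was 2.40 for Cxcl5 and 0.56 for Cxcl1. Against the labelled G2WT, where Cxcl5 was dim, its DKO signal was at least 0.68 higher on the log2 scale, the opposite direction. Cxcl3, a close relative of Cxcl1, was seen on the array labelled G2KO (0.0485) and on DKO (0.0264) and was dim on both WT arrays. Its difference was at least 6.77-fold in the G2KO pair, at least 2.24 (log2) against the other WT array, and at least 2.57-fold in the DKO pair. Cxcl3 therefore did not share the array pattern of Cxcl1 and Cxcl5, although its probe lies between theirs.

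Cxcl2, whose promoter carries the same κB letters as those of Cxcl1 and Cxcl3 printed above, was dim on all 4 arrays, as was Cxcl15, a chemokine of the lung. The Cxcl1 and Cxcl2 probes lie 12.7 kb apart. Ppbp, also known as Cxcl7, is a chemokine of the same chromosome 5 family that the name rule leaves out. Its level was 2.08 on the array labelled G2KO, dim (0.00231) on its WT, 0.0533 on DKO and 3.59 on the WT of DKO. Ppbp was thus high on the same pair of arrays as Cxcl1 and Cxcl5, at least 290-fold above the labelled WT, -0.79 (log2) against the other WT array, and 67.5-fold lower on DKO.

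**Figure D3:**
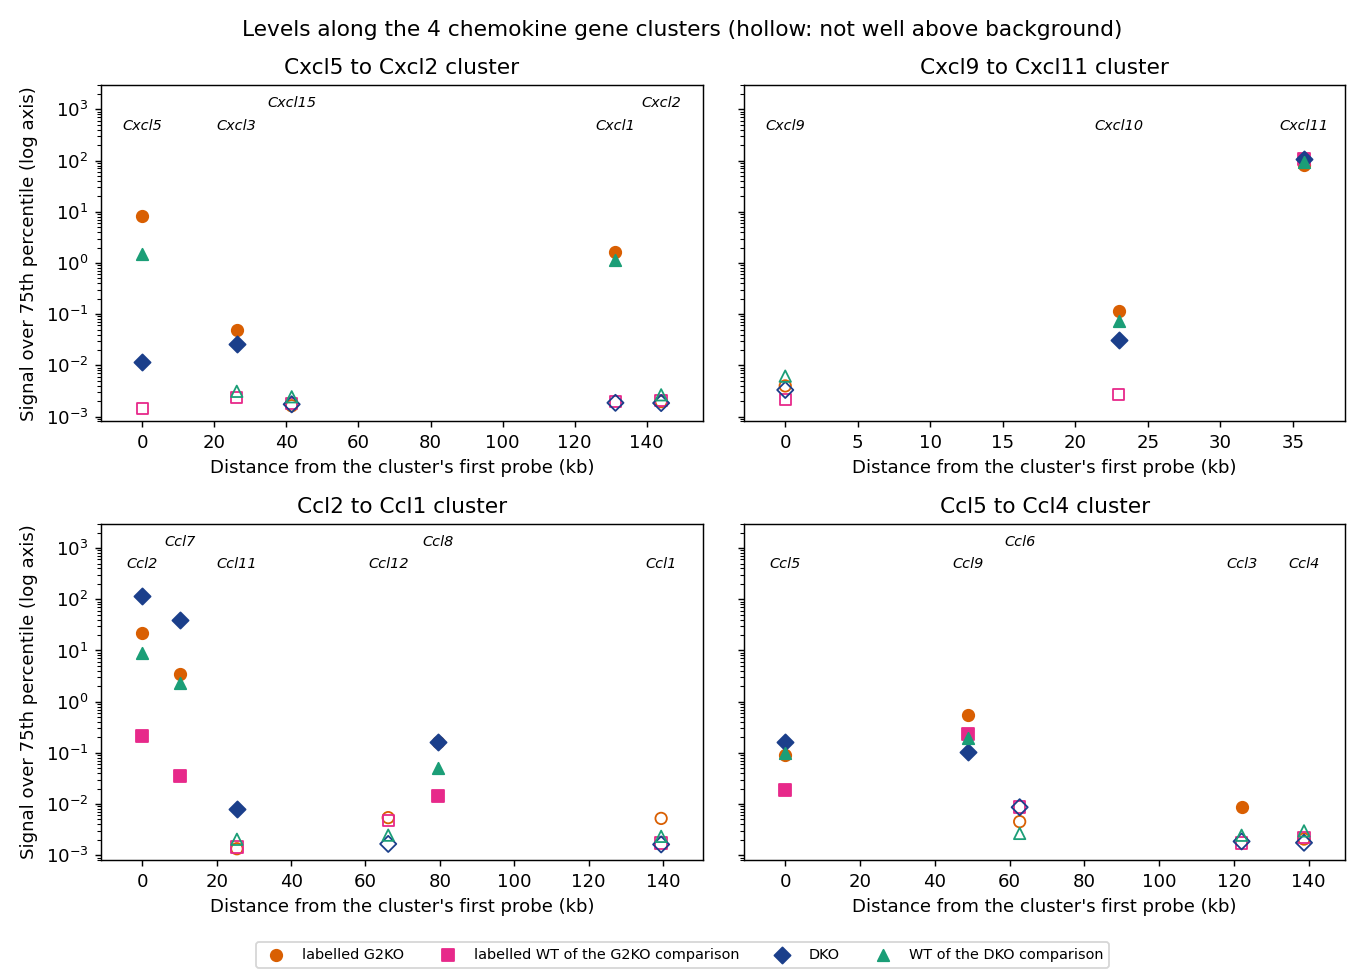
Levels (signal over the array's 75th percentile, log axis) of the genes in 4 chemokine clusters against the distance in kb from the first probe of each cluster; hollow symbols were not well above background. Cxcl1 and Cxcl5 separate the arrays while Cxcl2 and Cxcl15 stay at background, and Ccl2 and Ccl7 order the arrays alike while Ccl11, Ccl12 and Ccl1 stay at or near background.

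The monocyte-attracting CC chemokines followed another order of arrays. Ccl2, the main Ccr2 ligand (chr11:81850650-81850709), had a level of 22.0 on the array labelled G2KO, 0.210 on its WT, 117 on DKO and 9.05 on the WT of DKO. Ccl7, another Ccr2 ligand whose probe lies 10.0 kb away, had levels of 3.44, 0.0349, 39.9 and 2.27 in the same order. The DKO array was highest and the array labelled G2WT lowest for both. Ccl2 was 12.9-fold and Ccl7 17.6-fold higher on DKO than on its WT. Their probes were above background on all 4 arrays. The 10 spots of the Ccl2 probe differed by an SD of 0.0475 to 0.0923 (log2), which covers spot noise within an array and not the spread between cultures.

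On the array labelled G2KO, Ccl2 was 105-fold and Ccl7 98.6-fold above the labelled WT, whereas against the other WT array the log2 ratios were 1.28 and 0.60, below 4-fold. The WT arrays differed 43.2-fold in Ccl2 and 65.1-fold in Ccl7. The DKO difference kept its direction against either WT array, with log2 ratios of 3.69 and 9.13 for Ccl2 and 4.13 and 10.16 for Ccl7. Ccl8, a monocyte chemokine of the same cluster, read 0.164 on G2KO, 0.0143 on its WT, 0.164 on DKO and 0.0507 on the WT of DKO. It was 11.5-fold higher in the labelled G2KO pair, 1.70 (log2) against the other WT array, and 3.24-fold higher in the DKO pair, short of 4-fold. Ccl11 (eotaxin), which attracts eosinophils, was just above background on the DKO array alone (0.00803), too low for a ratio.

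Among the other CC chemokines, Ccl5 (RANTES), which attracts T cells and monocytes, had levels of 0.0897 on G2KO, 0.0192 on its WT, 0.163 on DKO and 0.0977 on the WT of DKO. Only the array labelled G2WT stood apart, 4.67-fold below G2KO and 5.09-fold below the other WT, and against the latter the G2KO ratio turned to -0.12 (log2). In the labelled G2KO pair Ccl5, at a log2 ratio of 2.22, was the member nearest the 4-fold limit on the inside, and Il34, at 1.83, the nearest outside. In the DKO pair these were Il34 (-2.18) and Tslp (-1.85), and between the WT arrays Ccl5 (2.35) and Il18 (1.93). Ccl17, a Ccr4 ligand known from dendritic cells, read 0.107, 0.177, 0.909 and 0.0675 in the order G2KO, its WT, DKO, WT of DKO. It was highest on the DKO array, 13.5-fold above its WT and 2.36 (log2) above the labelled G2WT. In the labelled G2KO pair its log2 ratio was -0.73, and 0.66 against the other WT array. Ccl9 (0.104 to 0.552), Ccl25 (0.404 to 1.15), Ccl19 (0.0756 to 0.107) and the membrane-bound Cx3cl1 (2.59 to 4.13) stayed within 4-fold in all 3 comparisons, and Ccl3 was just above background on the array labelled G2KO alone.

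Among the remaining CXC genes, Cxcl12 (SDF-1), which holds Cxcr4-bearing cells in place and is a typical product of mesenchymal cells, was highest on DKO. Its brighter probe read 13.7 on G2KO, 10.8 on its WT, 92.7 on DKO and 20.0 on the WT of DKO, and its other probe 4.67, 11.8, 29.9 and 5.90. Both probes placed the DKO array above the rest, 2.21 and 2.34 (log2) over its WT, but they differed in sign in the G2KO pair (0.34 and -1.34). Against the other WT array the brighter probe gave -0.55 (log2) for G2KO and was 8.59-fold higher for DKO. Cxcl14, expressed in skin and other epithelia and stroma, was seen only on the array labelled G2WT (0.190) and was at least 28.7-fold lower on G2KO, with no ratio against the other WT array, where it was dim too. Cxcl17, a chemokine of mucosal surfaces, was seen only on DKO (0.139), at least 13.6-fold above its WT. Cxcl16, the Cxcr6 ligand, read 0.127, 0.0255, 0.0969 and 0.0520, which is 4.99-fold higher in the labelled G2KO pair, 1.29 (log2) against the other WT array, and 1.86-fold higher in the DKO pair.

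Cxcl10, whose printed promoter and its upstream flank carry 3 κB matches, a pair of them overlapping,, is the interferon-induced ligand of Cxcr3. It read 0.114 on G2KO, was dim on the labelled WT (0.00270), and read 0.0311 on DKO and 0.0730 on the WT of DKO. The array labelled G2WT again stood lowest, at least 15.9-fold below G2KO and at least 10.2-fold below the other WT. G2KO was 0.65 (log2) above that other WT. DKO was 2.35-fold below its own WT but at least 2.12 (log2) above the labelled G2WT. Cxcl9, which binds the same receptor, was dim everywhere. The 2 probes named Cxcl11 disagreed in order: 1 read 82.0 to 109 and the other 2.56 to 5.00, with log2 ratios in the G2KO pair of -0.41 and 0.97, so no direction is given for that gene.

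Il33, an interleukin-1 family cytokine kept in the nucleus of barrier and stromal cells and released as an alarm signal, had its probe at chr19:30035101-30035160. Its level was 6.99 on DKO, dim (0.00287) on the WT of DKO, dim (0.00195) on the array labelled G2KO and 0.0164 on its WT. Only the DKO array was far above background, at least 682-fold over its WT and 8.73 (log2) over the labelled G2WT. Il18, of the same family, read 0.104 to 0.417 and was within 4-fold in every comparison. Il1a was just above background on the array labelled G2KO alone.

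In the interleukin-6 family, which signals through gp130, Lif changed side between the comparisons. Its levels were 0.0719 on G2KO, 0.357 on the labelled WT, 0.113 on DKO and 0.0164 on the WT of DKO. The 2 WT arrays were thus the extremes, 21.7-fold apart, with both knockout arrays between them. Lif was 4.96-fold lower in the labelled G2KO pair and 6.90-fold higher in the DKO pair, and with the WT arrays exchanged both signs turned (2.13 and -1.66 on the log2 scale). Il6, the pyrogenic and acute-phase cytokine, read 0.865, 0.507, 0.285 and 0.144 and was 1.71-fold and 1.98-fold higher on the array labelled G2KO and on DKO. With the WT arrays exchanged, G2KO was 6.03-fold higher and DKO 1.78-fold lower, so the size and, for DKO, the direction depended on the WT array. Il11 read 0.641, 0.449, 0.0693 and 0.243 and was 3.51-fold lower on DKO, or 6.48-fold below the labelled G2WT.

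Of the growth factors of myeloid cells, Csf1 (M-CSF), the survival factor of macrophages, varied little, at 26.5, 37.9, 30.6 and 34.1, and the log2 ratios of its 3 probes lay between -1.26 and 0.70 in all comparisons. Il34, which binds the same receptor, read 0.773 on G2KO, 0.217 on its WT, 0.0998 on DKO and 0.453 on the WT of DKO. It was 4.54-fold lower on DKO and 3.56-fold higher on the array labelled G2KO, or 0.77 (log2) against the other WT array. Csf2 (GM-CSF) was seen in the G2KO pair (0.0386 on G2KO and 0.113 on its WT) and was dim on both arrays of the DKO comparison. It was 2.92-fold lower on the array labelled G2KO than on its WT, but at least 3.77-fold higher than on the other WT, where it was dim. Between the WT arrays it differed by at least 11.0-fold. Il5 was just above background on DKO alone.

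Tslp, an epithelial and stromal cytokine that acts on dendritic cells, read 0.284 on G2KO, 0.0234 on its WT, 0.102 on DKO and 0.365 on the WT of DKO. As for Cxcl1 and Cxcl5, the array labelled G2KO and the WT of DKO were its highest pair, although it was above background everywhere. It was 12.1-fold higher in the labelled G2KO pair, -0.36 (log2) against the other WT array. On DKO it was 3.59-fold below its WT and 4.34-fold above the labelled G2WT. Il7 and Il15, stromal cytokines that keep lymphocytes alive, stayed within 4-fold in the 3 comparisons, at 0.0255 to 0.111 and 0.0229 to 0.0873. The brightest probes for Il16, Il19, Il20, Il22, Il24, Il27 and Il28b read 0.00830 to 0.471 and differed by at most 2.05-fold in any comparison, and Il10 was just above background on 2 arrays.

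Receptors were read next, since a ligand acts only where its receptor is made. Of 53 receptor genes on the array, 39 could be compared in the G2KO pair, of which 5 were at least 4-fold higher and 1 lower, against 3.58% and 1.92% of all probes. In the DKO pair 41 could be compared, of which 0 were higher and 2 lower by 4-fold, against 3.93% and 3.99%. Against the labelled G2WT, 7 of 43 receptors were at least 4-fold higher on DKO and 2 lower. The share of all probes was not computed for those arrays. With the other WT array, 0 of 36 receptors compared differed 4-fold from the array labelled G2KO, so every receptor difference of that pair named here rests on the array labelled WT. Il1rl1 (ST2), the receptor of Il33, had levels of 43.6 on G2KO, 0.999 on its WT, 2.29 on DKO and 53.4 on the WT of DKO. It was low on the DKO array, the one with high Il33, at a log2 ratio of -4.54 to its WT. The labelled G2WT was lower still, and against it the DKO ratio turned to 1.20 (log2). In the labelled G2KO pair the log2 ratio was 5.45. The other receptor lower on DKO than on its WT was Csf2ra (3.37, 4.29, 0.673 and 2.88, with a log2 ratio of -2.10), the binding chain for Csf2.

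The Cxcl12 receptors moved apart in the labelled G2KO pair: Cxcr4 was lower on the array labelled G2KO (0.00875 against 0.0579) and the scavenging receptor Cxcr7 higher (3.12 against 0.587). On DKO, where Cxcl12 was highest, Cxcr4 was dim, but it was dim on the WT of DKO too, so no ratio was taken. Cxcr7 was 0.962 on DKO, below the 3.36 of its WT and above the 0.587 of the labelled G2WT. Cxcr6, the receptor of Cxcl16, read 2.68, 0.184, 1.94 and 0.968, and Osmr, the gp130 partner for oncostatin M, 3.74, 0.0522, 10.4 and 4.56. Il13ra1, a chain shared by the Il4 and Il13 receptors, read 0.214, 0.0101, 0.249 and 0.103. For Cxcr6, Osmr and Il13ra1 the array labelled G2WT was the lowest, and their WT arrays differed by 2.40, 6.45 and 3.35 on the log2 scale.

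Of 27 NF-κB genes, 6 of 26 compared were at least 4-fold higher in the labelled G2KO pair and 0 were lower, against 3.58% and 1.92% of all probes. In the DKO pair 2 of 27 were higher and 1 lower, against 3.93% and 3.99%. Between the WT arrays 5 of 26 were higher on the WT of DKO, against 4.57%, and with the other WT array 0 of 26 differed 4-fold from the array labelled G2KO. Bcl3, an IκB protein of the nucleus, read 0.478 on G2KO, 0.0120 on its WT, 1.55 on DKO and 0.410 on the WT of DKO. Nfkbie, the inhibitor IκBε, read 0.264, 0.0636, 0.871 and 0.170, and Ikbke, an IκB kinase relative of the antiviral response, 0.0402, dim, 0.225 and 0.0491. As for Ccl2 and Ccl7, the DKO array was highest and the labelled G2WT lowest in these 3 genes.

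Tlr2, a receptor for bacterial lipoproteins, had the other order (1.04, 0.253, 0.227 and 1.44), high on the same pair of arrays as Cxcl1, Cxcl5 and Tslp. Birc3, an apoptosis inhibitor of TNF signalling, read 0.208, 0.0191, 0.151 and 0.185. Tlr4, the lipopolysaccharide receptor, read 0.581, 0.138, 0.384 and 0.559. In both, only the labelled G2WT was low. Of 12 related ligands and antagonists outside the name rule, Ppbp and Ccl27a were higher in the labelled G2KO pair, and none differed 4-fold from the array labelled G2KO with the other WT array. Ccl27a, a skin chemokine, read 0.206, 0.0252, 0.563 and 0.206.

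**Figure D4:**
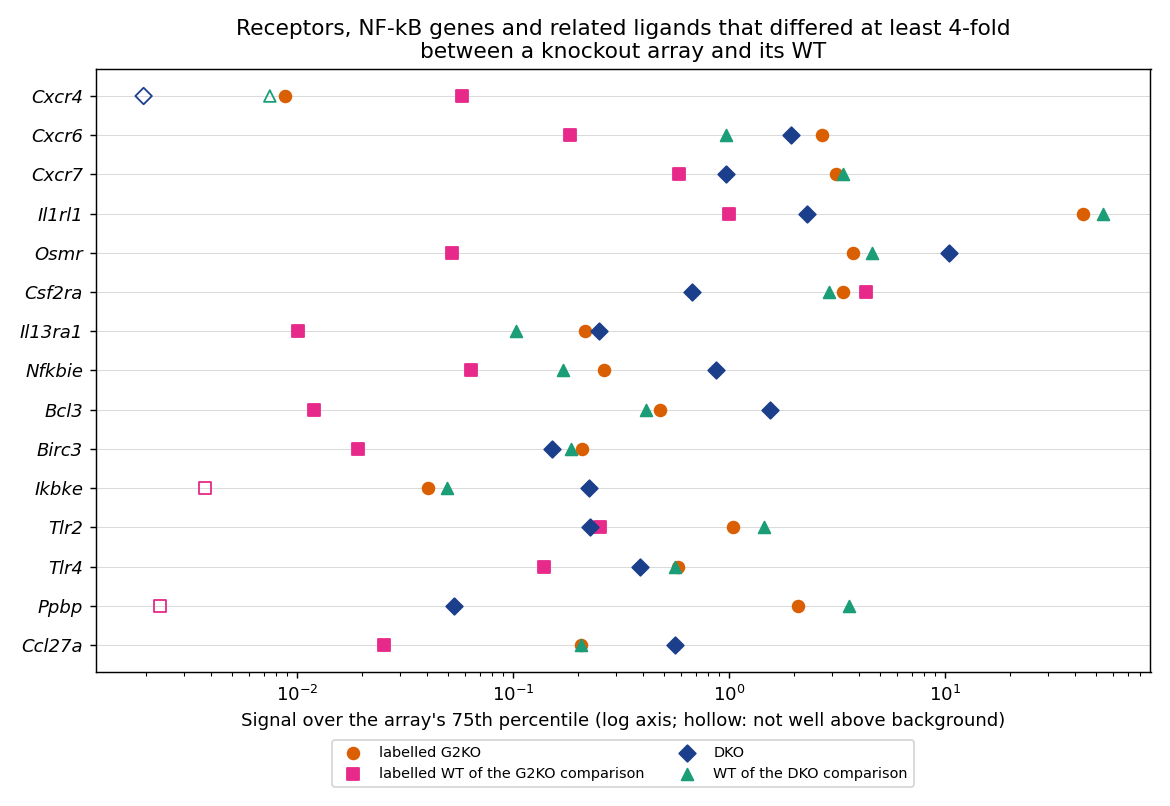
Signal over the array's 75th percentile (log axis) for the receptors, NF-κB genes and related ligands that differed at least 4-fold between a knockout array and its WT; each symbol is 1 array and hollow symbols were not well above background. Il1rl1 is high on the array labelled G2KO and the WT of DKO, Bcl3, Nfkbie and Ikbke are highest on DKO, and for most of the genes the array labelled G2WT is the lowest.

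Markers of other cells were read beside these results, because in a bulk culture fewer cells of a type and less RNA per cell cannot be told apart. The sums below add probes of different genes and serve only to set a list on 1 array beside the same list on another. Of 12 macrophage markers, Aif1, Fcgr1 and Tyrobp were dim on all arrays, Emr1 and Ptprc read 0.0148 to 0.0368, and the summed level was 12.3 to 23.5. None was at least 4-fold different in the labelled G2KO pair. Against the other WT array, Lyz2 (-2.78 on the log2 scale or lower) and Lyz1 (-2.71) were lower on the array labelled G2KO. On DKO, Cd14 was 3.05 (log2) higher than on its WT and Lyz1 lower, at -2.16. Of 9 lymphocyte markers, Cd3d, Cd3g and Ms4a1 were dim everywhere, the summed level was 1.31 to 2.17, and 0 differed 4-fold in either knockout pair. Of 9 granulocyte and mast cell markers (summed level 0.882 to 1.80), Ly6g and S100a8 were higher in the labelled G2KO pair (-0.26 and 1.15 on the log2 scale against the other WT array); on DKO, S100a9, Kit and Mcpt4 (0.897, at least 6.45 on the log2 scale) were higher and Ly6g was -3.01, while Cpa3 was dim everywhere. None of 8 endothelial markers, summed 7.77 to 11.6, differed 4-fold in either knockout pair. Against the other WT array, Tek was lower on the array labelled G2KO (-2.09 on the log2 scale or lower). Their part in the chemokine differences was not tested.

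Mesothelial and fibroblast markers also differed between the arrays, each list in its own way. On DKO, where Il33, Cxcl12, Cxcl17, Ccl2, Ccl7 and Ccl17 were highest, 11 of 12 mesothelial markers were at least 4-fold higher than on its WT. The share of all probes was 3.93%, and Calb2 was dim on all arrays. Their summed level was 150.1 on DKO, against 0.678 to 1.59 on the other arrays. This list was chosen with earlier results of these data known. It holds Wt1, Krt18 and Upk1b, which the study itself lists as up-regulated in DKO MEFs. The count is therefore not independent of those results. In the labelled G2KO pair 3 of 6 mesothelial markers compared were higher, against 3.58% of all probes. With the other WT array 1 of 4 was higher, against 0.838%. Of 14 fibroblast markers, 1 was higher and 5 lower on DKO than on its WT, against 3.93% and 3.99% of all probes. Against the labelled G2WT, 6 of the 14 were higher on DKO and 3 lower, so the balance depended on the WT array. The share of all probes was not computed there. In the labelled G2KO pair 6 of the 14 were higher, against 3.58%, and between the WT arrays 7, against 4.57%. Their summed level was 407 to 621. On the array labelled G2WT, where Cxcl1, Cxcl5, Cxcl10 and Tslp were lowest or dim, Pdgfra and Lum were dim and Thy1 read 0.461, against 53.1 on G2KO, 3.42 on DKO and 61.5 on the WT of DKO. Other fibroblast markers did not fall there: Col1a1 (54.3) and Vim (70.0) were highest on that array, and Fn1 and S100a4 were close to their level on G2KO. The part of these cells in the chemokine and cytokine differences was not tested, and with 1 culture per group genotype and culture cannot be told apart.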

How the data were processed

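Total RNA of 4 MEF cultures was labelled with Cy3 and hybridised to single-color Agilent mouse genome arrays on 1 slide. The authors extracted spot intensities with Agilent Feature Extraction (10.7.3.1 per the file headers, 10.5.1.1 in the submitters' processing notes), which subtracts background and spatial trends. The deposited processed signal intensity was divided by each array's 75th percentile (1586.21 to 2233.61), after control and outlier spots had been left out, and spots of a probe were averaged on the log2 scale. Of the 39429 probes, 39397 had a value on all 4 arrays. A probe was compared when well above background on 1 or both arrays. A dim signal was raised to the lowest signal that any probe called above background had on that array (11.4 to 19.2) where that was higher, the ratio is then a lower limit, and limits under 1-fold were dropped. For a gene with several probes the brightest was used for the named value. The deposited value table holds the same intensity for every spot. Python 3.11.15 (pandas 2.3.3, numpy 2.4.6) was used, and limma 3.58.1 in R 4.3.3 for normexp.

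Groups came from the sample labels. With 1 array per group no test was run, and precision is limited by the array number. The steps were tested on simulated data. Every member gene above background on 1 or more arrays is named. Those at least 4-fold different in a comparison have their level given for each array where they were above background. The members, the gene lists and the threshold were chosen with earlier results of these data known. Probe positions are mm9, as in the files, and promoters are RefSeq GRCm38.p6. Of the 70 gene names, 69 were found in the RefSeq gene table. The alternatives were normexp background correction, quantile, median and no scaling, no floor, only probes above background on both arrays, a gene's median probe, the other WT array, the WT arrays' mean, and thresholds of 2-fold and 10-fold.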

Additional observations from a re-analysis of the deposited data

Results flagged for a closer look

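By the labels, the knockout arrays lay on opposite sides of their WT arrays in 3 genes, by at least 4-fold each way. Were the labels of the G2KO pair exchanged, all 3 genes would lie on the same side in both pairs. Each side is 1 array against 1 array, and whether the effects differ was not tested. Cxcl1 was at least 7.86 higher (log2) on the array labelled G2KO than on its WT, and its ratio of DKO to its WT was -7.27 or lower. For Cxcl5 the ratios were 10.14, a lower limit, and -7.06. Lif lay the other way round, at -2.31 in the labelled G2KO pair and 2.79 in the DKO pair. The WT arrays differed from each other at least 4-fold in all 3 genes, and Ccng1 differed 4.78-fold within the G2KO pair, whose labels name only Ccng2 as altered. Xist was seen only on the array labelled WT of that pair. The part of any of these in the opposite directions was not tested.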

How the results depend on the processing

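No paired analysis was possible because each group has 1 array, and no array could be left out for the same reason. Quantile and median scaling kept the direction and the side of 4-fold for all 49 gene values recomputed. Scaling moved the median of all probes by over 0.1 (log2) in 3 cases: by 0.49 (G2KO pair) and 0.24 (WT pair) without scaling and by -0.19 (WT pair) with the median.

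In the labelled G2KO pair the 10 probes higher became 5 with normexp, 6 with probes above background on both arrays, and 4 with the other WT array. The 2 lower became 1 with normexp, without scaling, with both above background, with the mean of the WT arrays and at 10-fold, 0 with the other WT array and 9 at 2-fold. In the DKO pair the 8 higher became 5 at 10-fold, and the 3 lower became 5 with the mean of the WT arrays and 7 at 2-fold. Between the WT arrays the 7 higher became 4 and the 3 lower 1 with both above background, and 12 and 8 at 2-fold. With the other WT array, 9 of 33 genes changed sign on G2KO, among those called Ccl5 (-0.12), Lif (2.13) and Tslp (-0.36), and among the others Ccl17 (0.66), Csf2 (1.91) and Cxcl12 (-0.55). On DKO 7 of 34 did, with Cxcl5 (0.68) and Lif (-1.66) among those called and Tslp (2.12), Cxcl10 (2.12) and Il6 (-0.83) among the others. Requiring both arrays above background leaves out every lower limit by construction, and the cause of the other changes was not tested. With normexp, 33 gene values kept their call and direction, 11 fell short of 4-fold (named above) and 5 others moved. Dim signals limit Cxcl1, Cxcl3, Cxcl5, Cxcl10, Cxcl14, Cxcl17, Il33 and Csf2 to lower limits in 1 or more comparisons.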
